A study of Mus musculus with 2 samples.

Results

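The genes described are the ligands and receptors of the interleukin 1 (IL-1) and interleukin 18 (IL-18) pathways in regulatory T cells (Treg cells) of the mouse colon. They were taken as the rows of the deposited gene table whose symbol is Il1a, Il1b, Il1rn, Il18, Il1r1, Il1r2, Il1rap, Il18r1, Il18rap or Sigirr, 10 genes of the 55246 loci in the table. The table holds 2 RNA sequencing libraries of Treg cells from the lamina propria, the connective tissue under the colon epithelium, of female mice. One library is from wild-type mice (WT) and the other from mice labelled Exon2KO, whose Foxp3 allele lacks exon 2. The comparison asks how colonic Treg cells differ when the Foxp3 protein lacks the part that this exon encodes. Strain, age, the sorting of the cells and the number of mice behind a library are not given in the sources used here. With 1 library per genotype, no difference could be set against a spread between samples, and all intervals below cover counting error in these 2 libraries only.

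IL-1 alpha and IL-1 beta are inflammatory cytokines that act through the receptor IL1R1, which signals once the accessory chain IL1RAP joins it. Their action is held back by the antagonist protein encoded by Il1rn, which occupies IL1R1 without signalling, and by IL1R2, a decoy receptor that binds IL-1 but lacks the intracellular signalling domain. IL-18 acts in the same way through IL18R1 and its accessory chain IL18RAP, and SIGIRR is a receptor of the family that dampens signals of its relatives. In the gut, IL-1 favours type 17 T cell responses, Treg cells are known to carry the decoy receptor, and the epithelium is a main source of IL-18.

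Gene counts summed to 16281133 reads for WT and 15412425 for Exon2KO. Foxp3, the targeted gene, was counted 6991 times in WT against 20946 times in Exon2KO (log2 ratio 1.56, 95% interval 1.52 to 1.60); a count over the whole gene does not test the loss of 1 exon. All 9 T cell markers and all 7 Treg markers had reads in both libraries, but not at equal levels. The T cell markers were all within 2-fold, with a median log2 ratio of -0.30 and a range from -0.44 (Trac) to 0.20 (Cd4). Of the Treg markers Foxp3 was past 2-fold higher and 3 were past 2-fold lower: Ikzf2 (8476 and 440 reads), Tnfrsf18 (34363 and 11626) and Tnfrsf4 (66016 and 25936). Over all genes with at least 10 reads, 9.38% were past 2-fold higher and 8.14% lower. Markers of other cells were present as well. Those of B and plasma cells summed to 62489 CPM (counts scaled to library size) in WT and 53306 in Exon2KO, and those of colon epithelium to 96.5 and 488 CPM. In bulk RNA, fewer cells of a type and less RNA per cell cannot be told apart.

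Of the 6 receptor genes, 4 lie with relatives in 1 stretch of chromosome 1, where Il1r2 and Il1r1 are neighbours on the plus strand. The 2 encode proteins of different length: the principal coding sequence spans 576 codons for Il1r1 and 410 for the decoy Il1r2, per the GENCODE M21 annotation. Il1r1 has 2 annotated starts with a consensus coding sequence, and a count per gene does not say which start was used. The promoter windows of both starts are shown with that of Il1r2, because the signalling receptor differed most between the libraries while the decoy next to it was within 2-fold. The first of 3 Il1rn windows is shown as that of the member with the lowest ratio. For Il1rn too, the count per gene does not say which start was used. Each window runs from 250 bases before to 50 bases after a start in RefSeq (build GRCm38.p6), 5′ to 3′ on the plus strand. Capitals mark matches, on either strand, to the letters searched.
Il1r1, upstream start, chr1:40224830-40225129: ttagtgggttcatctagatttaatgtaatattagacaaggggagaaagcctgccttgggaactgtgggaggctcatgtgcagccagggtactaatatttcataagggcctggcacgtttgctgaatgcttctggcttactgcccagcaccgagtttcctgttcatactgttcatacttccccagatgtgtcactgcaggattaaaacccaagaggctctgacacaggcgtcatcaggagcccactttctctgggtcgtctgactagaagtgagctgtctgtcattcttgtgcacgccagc
Il1r1, downstream start, chr1:40266336-40266635: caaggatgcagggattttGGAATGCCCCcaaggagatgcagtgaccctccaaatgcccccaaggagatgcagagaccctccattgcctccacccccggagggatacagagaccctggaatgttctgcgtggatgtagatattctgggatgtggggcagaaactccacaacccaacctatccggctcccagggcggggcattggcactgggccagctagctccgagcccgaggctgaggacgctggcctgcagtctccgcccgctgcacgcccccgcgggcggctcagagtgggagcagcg
Il1r2, chr1:40085843-40086142: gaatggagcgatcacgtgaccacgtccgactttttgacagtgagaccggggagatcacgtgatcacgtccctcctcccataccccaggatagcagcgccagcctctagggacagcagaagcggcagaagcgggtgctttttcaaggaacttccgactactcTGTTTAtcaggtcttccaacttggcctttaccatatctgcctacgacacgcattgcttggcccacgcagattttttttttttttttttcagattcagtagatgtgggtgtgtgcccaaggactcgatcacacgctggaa
Il1rn, chr2:24336610-24336909: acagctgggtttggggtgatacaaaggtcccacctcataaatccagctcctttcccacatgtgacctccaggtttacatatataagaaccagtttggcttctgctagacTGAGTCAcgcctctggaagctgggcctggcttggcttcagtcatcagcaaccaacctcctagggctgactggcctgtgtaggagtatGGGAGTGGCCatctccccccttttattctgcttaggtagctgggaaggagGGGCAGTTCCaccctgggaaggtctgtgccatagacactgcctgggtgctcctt

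The letters searched were GGG, 5 free bases and CC for NF-kB, TGANTCA for AP-1, TGTTTA for forkhead factors and AGATAA for GATA factors. Of all 32851 promoter windows, 50.8% held the NF-kB letters, 7.81% the AP-1, 13.4% the forkhead and 11.2% the GATA letters. The upstream Il1r1 window held none of them, and the downstream window held 1 NF-kB match, from -232 to -223 with the start as 0. The Il1r2 window held 1 forkhead match, from -89 to -84. The Il1rn window held NF-kB matches from -54 to -45 and from -4 to 5 and an AP-1 match from -141 to -135. None of these matches overlapped another. The other Il1rn windows, which are not shown, shared 1 NF-kB match and held none of the other letters. The downstream Il1r1 window also held more CpG pairs (14) than the upstream one (5), against a median of 7 over all windows. A match is a description of letters and not of a bound site. RefSeq windows were matched for 9 of the 10 genes.

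Levels were compared between genes on the deposited FPKM scale, which divides reads by gene length and library size. In WT, Il1r2 was the highest of the 10 genes at 154 FPKM, above 97.3% of protein-coding genes with at least 10 reads. Il18r1 (24.6 FPKM), Sigirr (17.0), Il18rap (13.7) and Il1b (12.3) followed. Il18 (3.14), Il1r1 (1.63), Il1rn (1.59), Il1rap (0.809) and Il1a (0.450) were lower. The same 3 genes led in Exon2KO, with Il1r2 at 177 FPKM, Il18r1 at 25.7 and Sigirr at 14.9. Below them the order differed: Il1b (10.8 FPKM) and Il1r1 (8.14) stood above Il18 (6.52), Il18rap (6.45), Il1rap (0.902), Il1a (0.70) and Il1rn (0.670). Some neighbours in these orders had counting intervals that overlapped. In WT these were Il18rap with Il1b, Il1r1 with Il1rn, and Il1rap with Il1a. In Exon2KO they were Il1r1 with Il18, Il18 with Il18rap, Il1rap with Il1a, and Il1a with Il1rn.

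**Figure D1:**
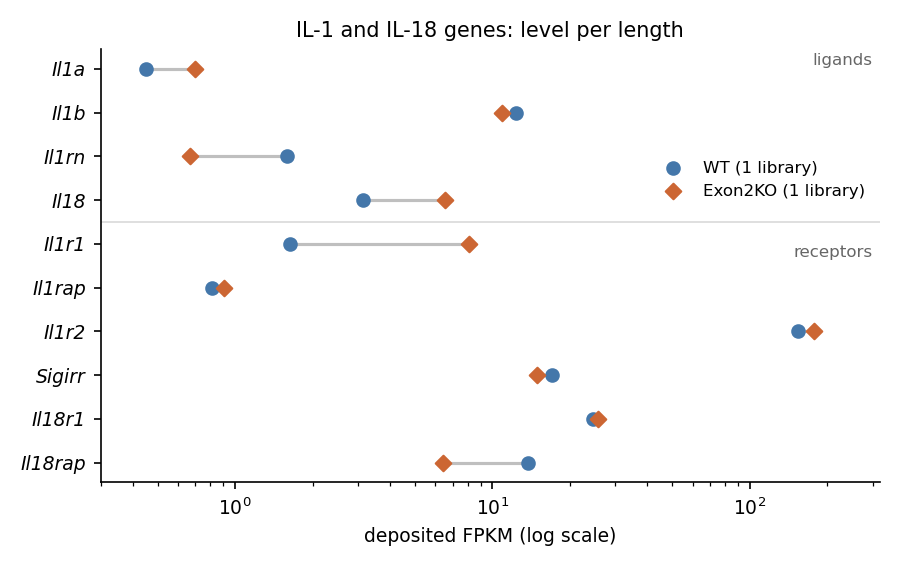
Deposited FPKM on a log axis for the 4 ligand and 6 receptor genes, with a circle for the WT library and a diamond for the Exon2KO library. Il1r2 sits at 154 and 177 FPKM, while Il1r1 moves from 1.63 to 8.14 FPKM.

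All 10 genes had at least 10 reads over both libraries, the minimum used, and the lowest count of any in 1 library was 14. Of the 10, 4 differed by at least 2-fold, a log2 ratio of 1 or more in size: Il1r1 and Il18 were higher in Exon2KO, and Il1rn and Il18rap were lower. Over all 17363 genes with enough reads, 17.5% passed the same fold, 9.38% higher and 8.14% lower. The 4 genes also had intervals that excluded equal levels, a rule that 15.3% of all tested genes met (8.14% higher, 7.12% lower). Among genes with at least 50 reads 10.5% were past 2-fold (5.1% higher, 5.38% lower), and 4 of the 9 members with that many reads, again 2 in each direction. At a fold of 1.5 the same 4 members passed, against 32.1% of all genes (16.8% higher, 15.2% lower). At a fold of 4 only Il1r1 did, against 5.22% of all genes (2.87% higher, 2.35% lower). Il1r1 was the 1 member whose whole 95% interval lay past 2-fold, a rule for which the share over all tested genes was not computed. The other 6 genes were within 2-fold, and for 4 of the 10 (Il1a, Il1b, Il1rap and Il18r1) the interval included equal levels; scaled by total counts, Sigirr took the place of Il18r1 among them. The median log2 ratio was 0.18 over the 4 ligand genes and 0.09 over the 6 receptor genes, against 0.0035 over all genes tested, whose interquartile range ran from -0.33 to 0.35. The direction of the ligand median rests on Il1a, and without it, at a minimum of 50 reads, the median was -0.20. The receptor median was 0.20 when scaled by total counts.

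**Figure D2:**
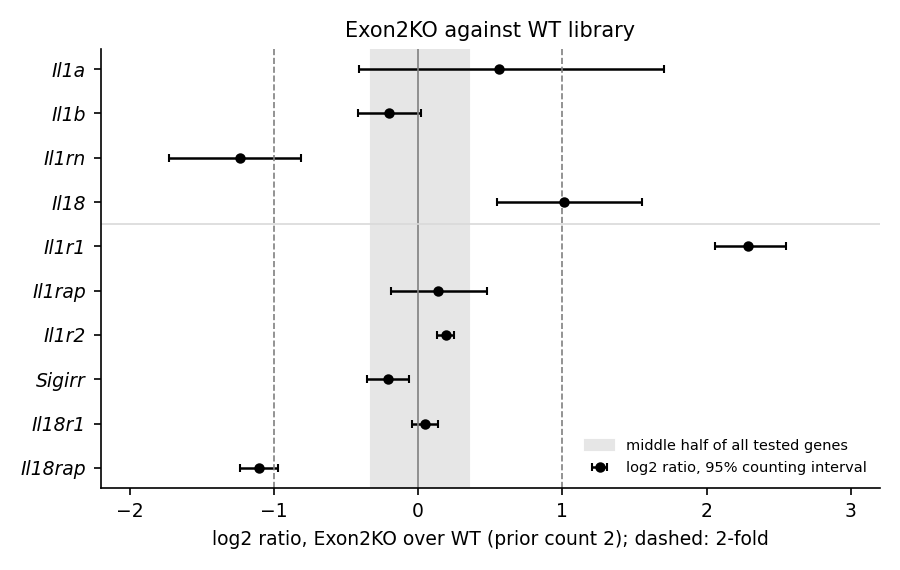
Log2 ratio of Exon2KO over WT for each gene, with 95% counting intervals; the grey band is the interquartile range of all tested genes (-0.33 to 0.35) and the dashed lines mark 2-fold. Il1r1 at 2.29 stands clear of the 2-fold line, and the intervals of Il1rn, Il18 and Il18rap cross it.

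The IL-1 receptor genes parted. Il1r1, the signalling receptor (ENSMUSG00000026072, chromosome 1, 40225080 to 40317257 on GRCm38), was counted 164 times in WT and 824 times in Exon2KO, or 10.4 and 51.5 CPM. It was 4.93-fold higher in the Exon2KO library, a log2 ratio of 2.29 (2.06 to 2.55), and 2.27% of tested genes had a ratio at least as high. Il1rap, the accessory chain (ENSMUSG00000022514, chromosome 16, 26581704 to 26730117), had 145 and 163 reads, and its level differed by less than counting error (log2 ratio 0.14, -0.19 to 0.47). Il1r2, the decoy (ENSMUSG00000026073, chromosome 1, 40074079 to 40125231), was counted 4629 and 5381 times, or 295 and 337 CPM. Its ratio was 1.14-fold (log2 0.19, 0.13 to 0.25), more than counting error allows but well within 2-fold. Il1r2 took 47.9% of the reads of the 10 genes in WT and 52.4% in Exon2KO.

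Ratios between genes of the same library do not depend on how the libraries are scaled. Per length, the decoy exceeded the signalling receptor 94.1 to 1 in WT and 21.8 to 1 in Exon2KO. That ratio was 4.32-fold lower in Exon2KO (log2 change -2.11, -2.37 to -1.86), while the decoy was still the more abundant in both libraries. Il1rap stood at 0.495 of the Il1r1 level in WT and at 0.111 in Exon2KO (-2.16, -2.58 to -1.74). These levels divide by the deposited gene lengths, 11360 bases for Il1rap and 6363 for Il1r1, and Il1rap has 7 annotated transcripts, so that the order in WT, where reads were close (145 and 164), depends on the length used. Of 11 such ratios, 9 differed between the libraries by more than counting error, and the exceptions were Il1a to Il1b and Il18bp to Il18.

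**Figure D3:**
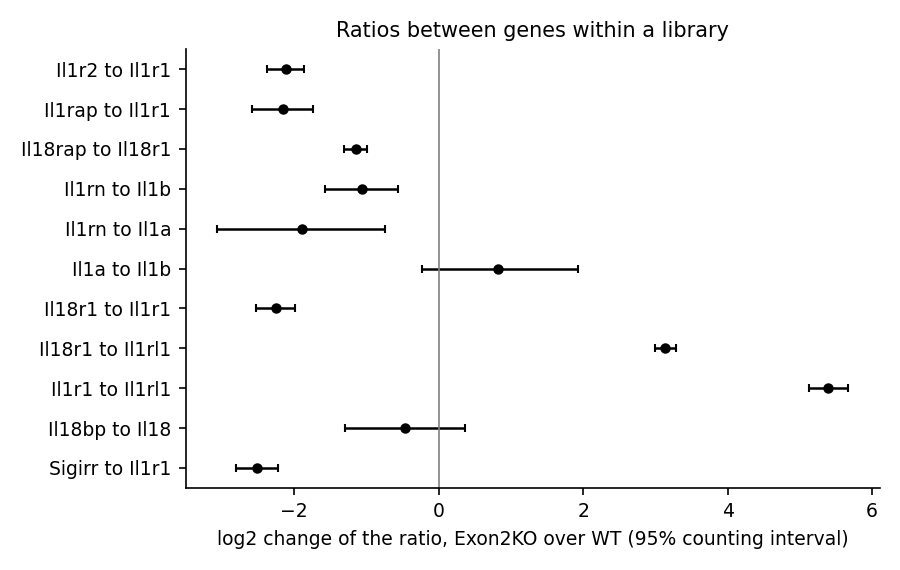
Change between the libraries, on the log2 scale, in the ratio of 2 genes measured within each library, with 95% counting intervals. The ratio of Il1r2 to Il1r1 lies at -2.11 and that of Il1r1 to Il1rl1 at 5.39, while the intervals of Il1a to Il1b and Il18bp to Il18 cross 0.

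Markers of other cell types also differed between the libraries. Beside the counts given here, 9.38% of all tested genes were past 2-fold higher and 8.14% lower. Those of colon epithelium summed to 96.5 CPM in WT and 488 in Exon2KO, with 9 of 12 past 2-fold higher and none lower. The 9 markers of gamma-delta T cells summed to 13.95 CPM in WT and 84.6 in Exon2KO, and of the 8 tested 6 were past 2-fold higher and 1 lower. Among them Tcrg-C1 went from 123 to 1034 reads, while Trdc, which encodes the delta chain's constant region, had 14 and 13. The 12 markers of innate lymphoid and NK cells summed to 595 CPM in WT and 404 in Exon2KO; 4 of the 11 tested were past 2-fold higher and 1, Gata3, was lower. Stromal and endothelial markers summed to 76.4 and 72.3 CPM, with 3 of the 9 tested past 2-fold higher, none lower and none at 0 in both libraries. Most of that sum was Pecam1 (917 and 834 reads). The 3 that were higher had few reads: Lum had 6 and 20, Cdh5 had 0 and 15, and Vwf had 5 and 31. The 7 mast cell markers summed to 9.62 CPM in WT and 3.31 in Exon2KO, nearly all of it Kit (149 and 53 reads, past 2-fold lower), while Mcpt1, Mcpt2, Fcer1a and Tpsb2 had no read in either library. The part of these cells in the Il1r1 result was not tested.

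The brakes on the pathway differed from one another. Sigirr (ENSMUSG00000025494, chromosome 7, 141091175 to 141100572) had 817 and 720 reads, a log2 ratio of -0.21 (-0.36 to -0.06). Il1rn, the antagonist (ENSMUSG00000026981, chromosome 2, 24336853 to 24351494), was counted 139 and 59 times, or 8.86 and 3.69 CPM. It was 2.40-fold lower in the Exon2KO library, a log2 ratio of -1.23 (-1.73 to -0.81), and 5.92% of tested genes had a ratio at least as low. Per length, Sigirr exceeded Il1r1 10.4 to 1 in WT and 1.83 to 1 in Exon2KO (-2.51, -2.80 to -2.22).

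The IL-1 ligand genes themselves were within 2-fold. Il1b (ENSMUSG00000027398, chromosome 2, 129364570 to 129371139) had 371 and 329 reads, at -0.20 on the log2 scale (-0.42 to 0.02). Il1a, its neighbour on the same strand (129299610 to 129309972), had 14 and 22 reads (0.56, -0.41 to 1.70). With so few reads its interval held equal levels as well as a ratio past 2-fold. The antagonist was lower relative to both ligand genes. Il1rn per Il1b went from 0.129 to 0.0618 per length (-1.06, -1.58 to -0.56), and Il1rn per Il1a from 3.54 to 0.956 (-1.89, -3.06 to -0.74). Antisense genes share exonic sequence with Il1b (Il1bos, 5 and 0 reads) and with Il1a (Gm14023, 2 and 3 reads), and whether counting used strand is not given in the sources used here.

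IL-1 ligands and the antagonist are typically made by myeloid cells, so the markers of those cells are given beside them. The 14 monocyte and macrophage markers summed to 48.3 CPM in WT and 56.5 in Exon2KO, most of it Lyz2 (317 and 405 reads) and Cd68 (168 and 243 reads). Of the 10 tested none was past 2-fold higher and 1, Csf1r, was lower, against 9.38% and 8.14% of all tested genes. The median log2 ratio of the 10 was -0.08. Csf1r had 14 and 6 reads, Adgre1 had 1 and 2, and Cd163 had none in either library. The 8 neutrophil markers together had 10 reads in WT and 15 in Exon2KO, with Cxcr2, Retnlg and Mmp8 at 0 in both. The 8 dendritic cell markers summed to 882 CPM in WT and 529 in Exon2KO, most of it Ccr7 (13057 and 8082 reads), which T cells also express. Of the 6 tested none was past 2-fold higher and 2 were lower, Zbtb46 (548 and 140 reads) and Cd209a (20 and 7 reads), and Itgax had none in either library. The part of these cells in the Il1rn result was not tested.

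On the IL-18 side, the binding chain and the accessory chain differed. Il18r1 (ENSMUSG00000026070, chromosome 1, 40465552 to 40500854) had 1872 and 1970 reads, a log2 ratio of 0.05 (-0.05 to 0.14). Il18rap (ENSMUSG00000026068, 40515362 to 40551705) had 1461 and 693 reads, or 93.1 and 43.3 CPM. It was 2.15-fold lower in Exon2KO, at -1.10 (-1.24 to -0.97), and 7.09% of tested genes had a ratio at least as low. Per length, Il18rap stood at 0.557 of the Il18r1 level in WT and at 0.251 in Exon2KO (-1.15, -1.31 to -0.99). Scaled by total counts the log2 ratio of Il18rap was -0.99, just short of 2-fold. The markers of innate lymphoid and NK cells, which can carry this receptor, are those given above beside Il1r1. Their sum was 595 CPM in WT and 404 in Exon2KO, of which Gata3, which Treg cells also express, made up 341 and 59.7 CPM. Of the 11 tested 4 were past 2-fold higher and 1 lower, against 9.38% and 8.14% of all tested genes. The part of these cells in the Il18rap result was not tested.

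Il18, the ligand (ENSMUSG00000039217, chromosome 9, 50554827 to 50581840), had 51 and 107 reads, or 3.25 and 6.69 CPM. It was 2.06-fold higher, a log2 ratio of 1.01 (0.55 to 1.55), at the edge of the fold used; with a prior count of 5 it was 0.98. Il18bp, a secreted protein that neutralises IL-18, had 35 and 53 reads (0.55, -0.07 to 1.23). Its ratio to Il18 differed by less than counting error (-0.47, -1.30 to 0.37). Most markers of colon epithelium were higher in the same library. Of the 12, 9 were past 2-fold higher and none lower, against 9.38% and 8.14% of all tested genes, with a median of 2.51. Krt8 had 160 and 1604 reads, Krt20 was within counting error (31 and 36), and Epcam (782 and 609 reads, -0.39, -0.54 to -0.23) and Muc2 (41 and 21 reads, -0.93, -1.82 to -0.20) were lower but within 2-fold. The part of epithelial RNA in the Il18 result was not tested.

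The receptor genes share a position. Il1r2, Il1r1, Il1rl2, Il1rl1, Il18r1 and Il18rap follow each other on the plus strand of chromosome 1 within 478 kb (40074079 to 40551705). Their log2 ratios in that order were 0.19, 2.29, -0.66, -3.09, 0.05 and -1.10. Il1r1 was past 2-fold higher and Il1rl1 and Il18rap past 2-fold lower, while Il1r2 and Il18r1, next to them, were within 2-fold. Il1rl1, which encodes the IL-33 receptor ST2, had 5655 reads in WT and 676 in Exon2KO, 8.52-fold lower (-3.21 to -2.98 on the log2 scale). Il1rl2, the receptor of IL-36 cytokines, had 12 and 7 reads (-2.39 to 0.66). Il18r1 starts 136 bases after the end of Il1rl1, and the ratio of Il18r1 to Il1rl1 per length went from 0.474 to 4.17. Against Il1rl1, Il1r1 went from 0.0314 to 1.32, a 42.0-fold change (log2 5.39, 5.12 to 5.67).

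The other 4 protein-coding genes with at least 10 reads within 500 kb of this stretch were Rnf149, Creg2, Map4k4 and Slc9a2. Their log2 ratios ran from -0.43 to 0.63, none past 2-fold, where 17.5% of all tested genes were. Creg2 (5 and 9 reads, -0.91 to 2.75) and Slc9a2 (6 and 4 reads, -2.88 to 1.46) had intervals that reached past 2-fold. An unnamed locus outside Ensembl between Il1rl2 and Il1rl1, chosen after its values were seen, had 215 reads in WT and 73 in Exon2KO (-1.56, -1.99 to -1.20). The antisense gene Gm16894 within Il1r2 had 47 and 46 reads and shares no exonic sequence with it. Gm37347, also within Il1r2 but on its strand, had 9 and 21 reads (1.04, 0.01 to 2.51), and a further unnamed locus before Il1rl1 had 11 in each library.

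**Figure D4:**
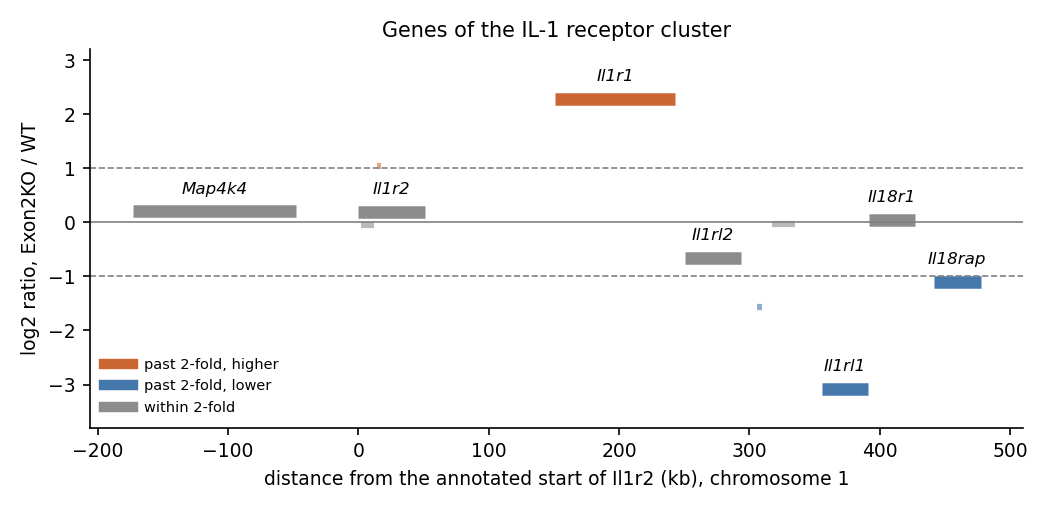
Log2 ratio of Exon2KO over WT (vertical axis) of the genes around the IL-1 receptor cluster, drawn at their distance in kb from the annotated start of Il1r2; thin bars are loci that are not protein-coding or have no name. Il1r1 lies at 2.29 and Il1rl1 at -3.09, and Il1r2 and Il18r1, on either side of that pair, lie at 0.19 and 0.05.

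Other ligands of the family were scarcely detected. Il33 had 5 reads in each library, and the IL-36 genes (Il1f5, Il1f6, Il1f8 and Il1f9 in the table) and Il1f10 had none. With 0 reads, shares as high as 1.84e-05% in WT and 1.95e-05% in Exon2KO are still possible (3 of all reads). The brain-type receptors Il1rapl1 and Il1rapl2 also had no read.

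Downstream of the receptors, 2 of 21 tested genes of receptor-proximal signalling were past 2-fold higher and 1 lower, where 9.38% and 8.14% of all tested genes were. Their median log2 ratio was -0.03. Irak3, which encodes an inhibitory relative of the receptor-bound kinases, was higher (375 and 938 reads, 1.29, 1.12 to 1.47). Peli2, an E3 ubiquitin ligase, had 15 and 44 reads (1.41, 0.65 to 2.48). Map3k8, a kinase that links NF-kB signalling to ERK, was lower (770 and 318 reads, -1.30, -1.50 to -1.11). The adaptor Myd88 had 1408 and 1278 reads (-0.17, -0.28 to -0.06) and the kinase Irak4 had 232 and 187 (-0.33, -0.62 to -0.05).

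Processing of IL-1 beta and IL-18 depends on inflammasomes, which activate caspase 1. Of 21 tested genes of that list 2 were past 2-fold higher and 3 lower, against 9.38% and 8.14% of all tested genes, with a median of -0.26. Casp1 had 1043 reads in WT and 680 in Exon2KO (-0.64, -0.79 to -0.50), and Pycard, the adaptor, had 636 and 663 (0.03, -0.13 to 0.19). Naip5, a sensor of bacterial flagellin, was lower at 149 and 53 reads (-1.48, -2.00 to -1.06), though it has close paralogs with which its reads could be confused. Nlrp3 had 8 and 2 reads (-1.34, -5.30 to 0.30) and is counted among the 3 lower, though its interval included equal levels. The other genes past the fold, named after their values were seen, had few reads: Nlrc4 had 21 and 7, Nlrp6 had 3 and 22, and Naip1 had 4 and 18.

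Of 24 genes known to be induced by IL-1 through NF-kB, 3 were past 2-fold higher and 2 lower, against 9.38% and 8.14% of all tested genes, and the median was -0.44. Ccl20, a chemokine for CCR6-bearing cells, had 1031 reads in WT and 16679 in Exon2KO (3.99, 3.90 to 4.08). Cxcl3 had 998 and 4833 reads (2.25, 2.15 to 2.35) and Il6 had 11 and 94 (2.86, 2.16 to 4.12). Lcn2 was lower, at 109 and 52 reads (-1.07, -1.60 to -0.61), as was Ptgs2, with 27 and 5 reads, which was named after its values were seen. Nfkbia, the NF-kB inhibitor that NF-kB itself induces, had 66554 and 47991 reads (-0.50, -0.52 to -0.48). Other signals also induce these genes, and Cxcl3 has close paralogs.

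**Figure D5:**
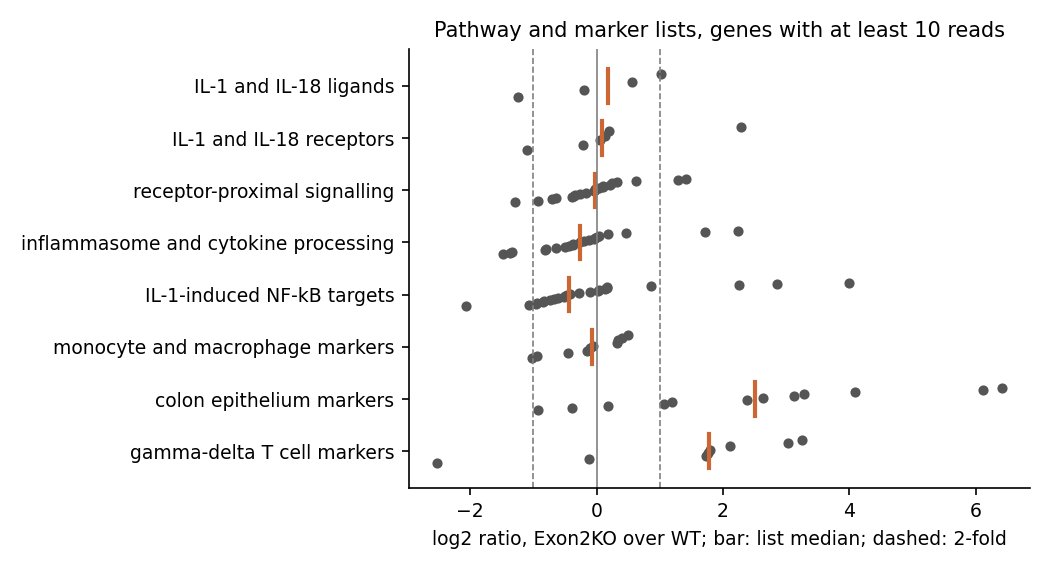
Log2 ratio of Exon2KO over WT for each gene with at least 10 reads in 8 lists, with the list median as a bar and 2-fold as dashed lines. The 3 downstream lists have medians from -0.44 to -0.03, while the colon epithelium and gamma-delta T cell markers have medians of 2.51 and 1.77.

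The authors' deposited table gives its own comparison of the 2 libraries. In it the adjusted p-value was 2.47e-05 for Il1r1, with a log2 fold change of 2.30. In the authors' deposited table the adjusted p-value was 0.114 for Il1rn, 0.125 for Il18rap and 0.310 for Il18, and at least 0.951 for the other 6 genes. When edgeR's exact test was run on the counts with the spread between replicates set by hand, a coefficient of variation of 0.2 matched the deposited p-values to 1% for 100% of 22447 genes, and 0.3 did so for 11.7%. With no replicate such a coefficient is an assumption, so these p-values do not rest on a measured one.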

How the data were processed

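The authors deposited a table of gene counts for 1 WT and 1 Exon2KO library, with FPKM, a scaled count signal (not used), and a log2 fold change, p-value and adjusted p-value of their own comparison, per the file headers. The submitters' processing notes name mm10, HISAT2 2.0.5, StringTie 1.3.3b, featureCounts 1.5.0-p3 and DESeq2 1.16.1, without their roles. Per the labels' protocols, 1 µg of RNA entered an NEBNext Ultra library preparation. The coordinates of all 10 members equal those of GENCODE M21 (GRCm38).

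TMM factors (WT 0.964, Exon2KO 1.04; edgeR 4.0.16, R 4.3.3) scaled the counts. Log2 ratios set Exon2KO over WT after adding a prior count of 2, for loci with at least 10 reads over both libraries. Their 95% intervals come from the Clopper-Pearson method on each gene's reads, turned into ratios without the prior count. Ratios between 2 genes have exact conditional odds ratio intervals. Reads carry no molecular identifiers, so intervals and floors (3 reads) cover counting error only. With 1 library per group no test was made, and a fold of at least 2 was used instead. The ratio and its interval were also run on simulated counts that held counting error alone. That run says nothing about variation between samples.

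Named genes are the members, other IL-1 family genes with at least 10 reads, neighbouring coding genes, Foxp3, 6 key pathway genes, and up to 6 pathway genes per list past 2-fold with at least 50 reads. Marker genes, family genes with fewer reads and non-coding loci fall outside this rule and were named after their values were seen. Members and lists were chosen with earlier results of these data known. Alternatives covered scaling, prior count, read minimum and fold. Python 3.11.15 with scipy 1.17.1 was used.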

Additional observations from a re-analysis of the deposited data

How the results depend on the processing

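No paired analysis was possible because neither genotype has a further library, and none could be left out. With upper quartile scaling, DESeq2 1.42.0 size factors, or TMM that leaves out immunoglobulin, mitochondrial and haemoglobin genes, each count of genes stayed within 1.5 times of its value and the ligand and receptor medians kept their sign. Total counts took the median over all genes from 0.0035 to 0.108; they left 1 member lower in place of 2 (Il18rap at -0.99) and moved the receptor median from 0.09 to 0.20, with Il1r2 at 0.30 and Il18r1 at 0.15. Under total counts alone, of these scalings, the interval of Il18r1 left out equal levels (0.06 to 0.24) and that of Sigirr took them in (-0.25 to 0.04). A prior count of 5 left 1 member higher in place of 2 (Il18 at 0.98). Each of the 10 members kept its sign under these scalings and prior counts, and Il1r1 ran from 2.27 to 2.39.

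A fold of 4 left 1 member higher (Il1r1) and 0 lower, 4 pathway genes higher and 2 lower in place of 7 and 7, and 499 and 408 of all genes, as the threshold implies. A fold of 1.5 gave 9 pathway genes higher and 21 lower, and 2922 of all genes higher and 2647 lower in place of 1628 and 1413. At least 50 reads left 4 pathway genes lower and 649 and 685 of all genes, because fewer genes were tested, and turned the ligand median from 0.18 to -0.20, because Il1a dropped out. With no read filter, 2643 of all genes were higher and 2844 lower. Ratios within a library are equal with the deposited FPKM by construction, because it divides the same reads by the same gene lengths. Depth limits Il1a most, with 36 reads in all.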

Other observations

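The ligand genes lie apart from the receptor stretch, Il1a and Il1b next to each other. Within 500 kb of Il1a and Il1b on chromosome 2, 11 other protein-coding genes had at least 10 reads (Tmem87b, Zc3h8, Gm10762, Zc3h6, Ttl, Polr1b, Chchd5, Slc20a1, Ckap2l, Sirpa and Stk35). Their log2 ratios ran from -1.26 to 0.50, and 2 of them, Sirpa (24 and 9 reads) and Stk35 (95 and 47 reads), were past 2-fold lower, where 8.14% of all tested genes were. Around Il1rn the 3 others, Psd4, Pax8 and Ehmt1, ran from -0.17 to 0.08, against -1.23 for Il1rn itself.

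Around Il18 on chromosome 9, a region looked at after its values were seen, 3 of 16 other protein-coding genes were past 2-fold higher and none lower, against 9.38% and 8.14% of all tested genes. Plet1 went from 30 to 123 reads (log2 ratio 1.94, 1.42 to 2.64), Bco2 from 6 to 17 and Cryab from 2 to 9. The annotated span of Bco2 runs into the first bases of Il18 on the opposite strand, with no shared exonic sequence. No explanation was tested for these values.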
